A study of Mus musculus with 6 samples.

Results

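The genes examined here are 39 mouse genes of redox metabolism, chosen by their known roles, with earlier results of these data known, out of 55421 genes in the deposited table. They comprise 4 subunits of the phagocyte NADPH oxidase (Cyba, Cybb, Ncf1 and Ncf4) and 35 genes of antioxidant defense and its control. All 39 passed the filter on low counts and were among the 18375 genes tested. They were compared between leukemia cells with an intact Ddit4 gene and leukemia cells that lack it, with 3 RNA-seq libraries from each. Ddit4 encodes a stress-induced protein that restrains mTORC1 signaling. In both groups c-Kit+ hematopoietic stem and progenitor cells of young adult C57BL/6 donors, either Ddit4+/+ or Ddit4-/-, had been given AE9a, a short form of the AML1-ETO fusion protein, by a retrovirus that also carries GFP. The transduced cells gave rise to acute myeloid leukemia in irradiated recipients, and the leukemia cells came from bone marrow, and host cells can remain in the libraries. The groups are called AE9a-Ddit4+/+ (wild type) and AE9a-Ddit4-/- (knockout) below. The labels number the libraries of each group, but whether these are separate leukemias is not stated, so that p values measure only the spread between libraries, which may be technical. In the paper's primary transplants fewer than 3 recipients of knockout cells developed leukemia, so the knockout libraries may share a founding leukemia. Founding leukemia and genotype then cannot be told apart.

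Reactive oxygen species form in mitochondria and, in phagocytes, are made on purpose by the NADPH oxidase, a membrane enzyme that passes electrons from NADPH to oxygen. Superoxide dismutases turn superoxide into hydrogen peroxide, which catalase, glutathione peroxidases and peroxiredoxins then remove, the latter classes with electrons from glutathione and thioredoxin that come in the end from NADPH. Many of these genes are driven by the transcription factor NRF2, which KEAP1 holds at a low level until oxidants or electrophiles modify KEAP1. In blood, red cell precursors rely on catalase, peroxiredoxin 2 and glutathione peroxidase 1, while granulocytes and monocytes carry the oxidase.

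Library totals ran from 62141558 to 72717681 counts, and 12 counts, the limit of detection used here, equal 0.163 to 0.198 CPM (counts scaled to a common library total of 1e+06). Ddit4 itself fell, from 228, 161 and 342 CPM in wild type libraries 1, 2 and 3 to 84.9, 77.7 and 85.9 CPM in knockout libraries 1, 2 and 3 (log2 fold change -1.56, edgeR adjusted p = 0.00635). The table counts whole genes, and which part of Ddit4 the allele lacks is not known here. Kit and Cd34, markers of the progenitor-like leukemia cell, were at 14.6 to 31.6 CPM and 2.26 to 9.83 CPM in wild type and at 304 to 509 CPM and 493 to 558 CPM in knockout libraries, so that the labelled cell type was marked less well in the wild type. Runx1t1, whose sequence makes up the ETO part of AE9a, was at 6.47 to 18.1 CPM in wild type and 69.9 to 206 CPM in knockout libraries. Erythroid markers went the other way. Their 17 genes summed to 8374 to 17120 CPM in wild type and 672 to 1213 CPM in knockout libraries, and 13 of them were lower by the test. Mitochondrial genes took 6.17% ± 1.52 of wild-type and 13.3% ± 2.75 of knockout counts (SD, n = 3 each, exact permutation test, two-sided, p = 0.1, the smallest that 3 against 3 libraries allow). The Y-linked gene Ddx3y was at 0.0589 to 0.0774 CPM in wild type and 88.2 to 125 CPM in knockout libraries, and Xist at 566 to 1032 CPM and 20.3 to 129 CPM, so genotype and sex of the cells cannot be told apart. In such bulk samples fewer cells of a type and less RNA per cell cannot be told apart either.

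Of the 39 genes, 16 (41%) passed an adjusted p of 0.05 in edgeR's quasi-likelihood test, against 30.1% of all genes tested. In the knockout 7 were higher (17.9%, against 19.4% of all genes) and 9 were lower (23.1%, against 10.7% of all genes), while 23 were not past the threshold. The 7 include Gpx7, which passed the low-count filter only through the knockout libraries, so that it had to differ once it was tested. At an unadjusted p below 0.05 there were 20 of the 39, against 7788 of the 18375 genes tested. The groups of libraries did not overlap in 9 genes that were higher and 11 that were lower, where over all genes tested 27.9% were higher and 22.2% lower in this way, 50.1% together. The median log2 fold change of the 39 genes was -0.28, against 0.04 over all genes tested. Most of the 39 are well expressed, and over the 8218 genes with a log2 CPM over 4 on average the median was -0.17. The members that were lower are 4 enzymes that remove peroxide (Prdx3, Cat, Prdx2 and Gpx1), both subunits of the first enzyme of glutathione synthesis (Gclc and Gclm), thioredoxin (Txn1), the quinone reductase Nqo1 and the oxidase subunit Cyba. Those that were higher are 3 glutathione transferases (Gstm1, Gsto1, Gstp1), 2 glutathione peroxidases that enter the secretory pathway (Gpx3, Gpx7), Hmox1 and Prdx4.

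**Figure D1:**
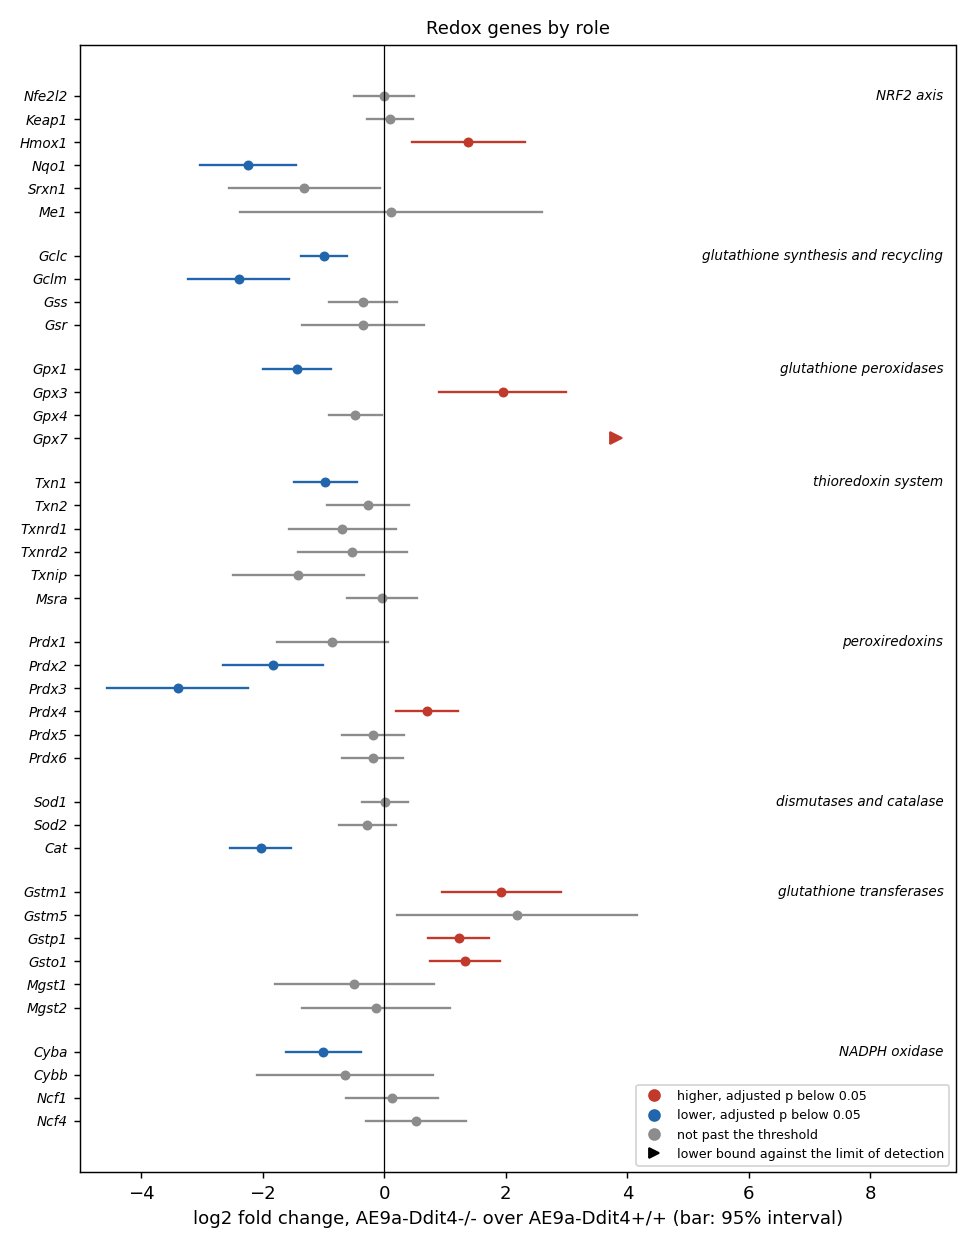
Fitted log2 fold change (x axis, knockout over wild type, 3 libraries each) of the 39 redox genes grouped by role, with 95% intervals as bars. Red points (7 genes) were higher and blue points (9 genes) lower at an adjusted p below 0.05, grey points did not pass, and the triangle gives the lower bound for Gpx7, which lay at or under 12 counts in the wild type.

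Neither regulator of the pathway passed the test. Nfe2l2 (ENSMUSG00000015839, chr2:75675513-75704641, minus strand), which encodes NRF2, had 153, 221 and 143 CPM in the wild type and 181, 175 and 161 CPM in the knockout. Its groups overlapped, the log2 fold change was 0.00 to 2 decimals (95% interval -0.50 to 0.49), and its sign changed between settings. Keap1, which encodes the NRF2 inhibitor, had 66.8, 67.6 and 66.9 CPM in the wild type and 72.5, 75.5 and 67.6 CPM in the knockout. These groups did not overlap, but by a narrow margin, and the log2 fold change of 0.10 (95% interval -0.28 to 0.48) was not past the threshold (edgeR adjusted p = 0.68).

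Among genes commonly used to read NRF2 activity, Nqo1 was lower and Hmox1 higher in the knockout. Nqo1 (ENSMUSG00000003849, chr8:107388225-107403206, minus strand), a quinone reductase, had 18.1, 12.6 and 18.9 CPM in the wild type and 2.67, 3.39 and 4.35 CPM in the knockout. Every knockout library lay below every wild-type library, a log2 fold change of -2.25 (SE 0.34, 95% interval -3.04 to -1.46, edgeR adjusted p = 0.00312). Hmox1 (ENSMUSG00000005413, chr8:75093621-75100589, plus strand), which encodes heme oxygenase 1, the inducible enzyme of heme breakdown, had 17.8, 20.3 and 10.4 CPM in the wild type and 54.1, 22.8 and 49.5 CPM in the knockout. Knockout library 2 was only just above the highest wild-type library. Hmox1 rose by 1.38 on the log2 scale (SE 0.40, 95% interval 0.46 to 2.31, edgeR adjusted p = 0.0351), but it was not past the threshold without wild-type library 1 (1.46), wild-type library 3 (1.14), knockout library 1 (1.17) or knockout library 3 (1.20), with adjusted p up to 0.113 over the alternatives. Monocyte and macrophage markers, which include cells that break down heme, summed to 872 to 1519 CPM in the wild type and 657 to 1885 CPM in the knockout, a sum carried by Lyz2 and F13a1, which were not past the threshold. Of the 19 markers 6 were higher (31.6%, against 19.4% of all genes), all of them found in resident macrophages. Adgre1, Cd68 and Fcgr1, also macrophage markers, were not past the threshold (edgeR adjusted p = 0.298, 0.072 and 0.172). The 6 were Spic, a factor of heme-recycling macrophages (0.0884 to 0.522 CPM and 4.72 to 11.96 CPM), Vcam1 (5.40 to 13.6 CPM and 50.95 to 134 CPM), Mrc1 (0.217 to 2.09 CPM and 24.5 to 59.6 CPM) and the complement genes C1qa, C1qb and C1qc (0.588 to 3.77 CPM and 19.9 to 49.7 CPM). Each of the 6 was lowest among the knockout libraries in library 2, as Hmox1 was. All 6 were highest in knockout library 3, while Hmox1 was highest in knockout library 1, and their part in Hmox1 was not tested.

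Srxn1, which encodes sulfiredoxin, the enzyme that repairs overoxidized peroxiredoxins, had 21.4, 4.88 and 14.1 CPM in the wild type and 4.27, 6.62 and 5.34 CPM in the knockout. Wild-type library 2 lay within the knockout range, and the log2 fold change of -1.32 (95% interval -2.56 to -0.08) was not past the threshold (edgeR adjusted p = 0.101). Me1, which encodes the cytosolic malic enzyme, had 45, 8 and 6 counts in the wild type and 29, 29 and 4 counts in the knockout. It was near the limit of detection in all 6 libraries and no difference was detectable at this depth.

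NRF2 binds antioxidant response elements, whose core was searched here as the letters TGACNNNGC on both strands. The search covered the RefSeq promoter windows on GRCm38.p6, which run from 250 bases before to 50 bases after each start site. Of the 39 genes 33 had such a window, and 9 of these (27.3%) held the letters, against 3781 of 27025 genes (14.0%) with a window in the table. The 9 are Nfe2l2, Srxn1, Me1, Gclm, Txnrd1, Prdx1, Sod1, Gstm5 and Mgst1. Prdx6, Gsr, Msra, Hmox1, Gclc and Ncf4 had no entry. Of these 9 genes only Gclm passed the threshold, where 30.1% of all genes tested did, and 9 genes are too few to set against that share. The windows of the members best known as NRF2 targets are shown with 10 bases on each side, on the strand that holds the letters, with the match in capitals.
Gclm (chr3:122245413-122245441, minus strand, match centered 130 bases before the start site): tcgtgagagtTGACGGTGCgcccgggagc
Txnrd1 (chr10:82859104-82859132, minus strand, 88 bases before): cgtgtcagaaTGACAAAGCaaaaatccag
Prdx1 (chr4:116685456-116685484, minus strand, 129 bases before): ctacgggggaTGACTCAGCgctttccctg
Srxn1 (chr2:152105542-152105570, minus strand, 32 bases after): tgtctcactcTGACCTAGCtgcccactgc
Me1 (chr9:86695902-86695930, minus strand, 2 bases before): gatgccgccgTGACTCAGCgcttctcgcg
The matches of Prdx1 and Me1 also hold TGACTCA, the letters bound by AP-1 factors. The letters TGACNNNGC are not in the window of Nqo1, nor, Gclm aside, in that of any other gene past the threshold with an entry. Elements more than 250 bases before a start site were not searched, so their absence from a window does not mean that a gene has none. A match is a description of the sequence, and the libraries carry no measurement of binding.

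Transcripts for the rate-limiting step of glutathione synthesis were lower in the knockout. Glutamate-cysteine ligase is made of a catalytic subunit (Gclc) and a modifier subunit (Gclm). Gclm (ENSMUSG00000028124, chr3:122245557-122270732, plus strand) went from 123, 61.3 and 67.0 CPM to 16.98, 19.5 and 11.2 CPM, a 5.27-fold lower level (log2 fold change -2.40, SE 0.35, 95% interval -3.22 to -1.57, edgeR adjusted p = 0.00302). Gclc (ENSMUSG00000032350, chr9:77754535-77794485, plus strand) went from 151, 141 and 154 CPM to 71.1, 72.5 and 81.3 CPM, a 1.99-fold lower level (log2 fold change -0.99, SE 0.16, edgeR adjusted p = 0.0043). Neither gene's groups overlapped, and the spread within each group was small for Gclc (148.9 ± 6.93 and 74.99 ± 5.53 CPM, SD, n = 3 each).

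The later steps of glutathione metabolism did not pass the test. Gss, which encodes glutathione synthetase, had 22.4 to 30.5 CPM in the wild type and 18.4 to 24.9 CPM in the knockout (log2 fold change -0.36, 95% interval -0.92 to 0.21). Gsr, which encodes the reductase that recycles oxidized glutathione with NADPH, had 194, 415 and 140 CPM in the wild type and 185, 134 and 268 CPM in the knockout. Wild-type library 2 was far above the others, and without it the log2 fold change of -0.35 became 0.23.

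Glutathione peroxidases changed in both directions. Gpx1 (ENSMUSG00000063856, chr9:108338903-108340343, plus strand), the main cytosolic peroxidase of hydrogen peroxide, went from 892, 788 and 968 CPM to 231, 345 and 406 CPM. The groups were far apart, and Gpx1 was 2.70-fold lower (log2 fold change -1.43, SE 0.24, 95% interval -2.00 to -0.87, edgeR adjusted p = 0.00487). Gpx4, which reduces lipid peroxides in membranes, went from 249, 188 and 239 CPM to 180, 158 and 148 CPM, and although the groups did not overlap, its log2 fold change of -0.47 was not past the threshold (edgeR adjusted p = 0.0916). Gpx3 (ENSMUSG00000018339, chr11:54902453-54910377, plus strand), the secreted plasma enzyme, went the other way, from 7.95, 4.199 and 2.55 CPM to 15.5, 21.6 and 19.6 CPM (log2 fold change 1.95, SE 0.45, 95% interval 0.90 to 2.99, edgeR adjusted p = 0.0157). Gpx7 (ENSMUSG00000028597, chr4:108400390-108406961, minus strand), a peroxidase of the endoplasmic reticulum, had 0, 0 and 4 counts in the wild type and 166, 220 and 108 counts in the knockout. Against the limit of detection it was at least 14.0-fold higher, and no p is given since it passed the filter only through the knockout.

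Measured in TPM, which divides counts by exon length and scales them to a common total, the 4 peroxidases summed to 1840, 1626 and 2049 TPM in the wild type and 638, 634 and 841 TPM in the knockout. Gpx1 made up 80.6% to 83.1% of this sum in the wild type and 58.3% to 74.2% in the knockout. The share of Gpx4 was 16.5% to 18.8% and 22.7% to 37.9%, while Gpx3 and Gpx7, both of which rose, together stayed a small part of the family.

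In the thioredoxin system only Txn1 passed the test. Txn1 (ENSMUSG00000028367, chr4:57943373-57956411, minus strand), the cytosolic thioredoxin, went from 223, 168 and 182 CPM to 73.9, 105 and 114 CPM. Groups did not overlap, with a log2 fold change of -0.97 (SE 0.22, 95% interval -1.49 to -0.45, edgeR adjusted p = 0.0158), but the threshold was not passed without wild-type library 1 (-0.84). Txn2, its mitochondrial counterpart, had 42.3 to 75.6 CPM and 34.5 to 55.8 CPM (log2 fold change -0.26, 95% interval -0.94 to 0.41). The reductases that reload them were not past the threshold either: Txnrd1 of the cytosol had 92.6 to 267 CPM and 85.1 to 133 CPM (-0.69, 95% interval -1.57 to 0.19), and Txnrd2 of mitochondria 11.1 to 25.6 CPM and 8.90 to 16.6 CPM (-0.53, 95% interval -1.42 to 0.37). Txnip, which encodes an inhibitor of thioredoxin and of glucose uptake, was among the most abundant members, at 1290, 1841 and 4076 CPM in the wild type and 1217, 911 and 576 CPM in the knockout. The groups did not overlap, but the highest knockout library was close to the lowest wild-type library. Its log2 fold change of -1.41 (95% interval -2.50 to -0.33) was not past the threshold (edgeR adjusted p = 0.0547), and it was -0.80 without wild-type library 3. Msra, a repair enzyme for oxidized methionine, had 20.6 to 30.3 CPM and 22.3 to 30.4 CPM (-0.03, 95% interval -0.61 to 0.55).

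The greatest decrease among the 39 genes was that of Prdx3, the mitochondrial peroxiredoxin. Prdx3 (ENSMUSG00000024997, chr19:60864051-60874556, minus strand) had 269, 86.0 and 224 CPM in the wild type and 11.5, 17.5 and 25.9 CPM in the knockout. Even the lowest wild-type library was over the highest knockout library by a wide margin, and the fitted level was 10.5-fold lower (log2 fold change -3.40, SE 0.50, 95% interval -4.56 to -2.24, edgeR adjusted p = 0.00292). Prdx2 (ENSMUSG00000005161, chr8:84969587-84974834, plus strand), a cytosolic peroxiredoxin abundant in red cells, had 305, 116 and 211 CPM in the wild type and 49.6, 67.2 and 61.0 CPM in the knockout. It was 3.56-fold lower (log2 fold change -1.83, SE 0.35, 95% interval -2.65 to -1.02, edgeR adjusted p = 0.00785). Prdx4 (ENSMUSG00000025289, chrX:155323918-155340754, minus strand), the peroxiredoxin of the endoplasmic reticulum, went from 32.7, 32.4 and 36.2 CPM to 65.7, 56.8 and 42.7 CPM. The groups did not overlap (log2 fold change 0.71, SE 0.22, edgeR adjusted p = 0.0443), yet the threshold was lost under 8 of 14 alternatives, with an adjusted p of up to 0.136. These included each of the 3 wild-type libraries left out (0.68, 0.68 and 0.75), knockout library 1 left out (0.56) and knockout library 2 left out (0.63).

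The other 3 peroxiredoxins did not pass. Prdx1, a cytosolic enzyme, had 241, 106 and 180 CPM in the wild type and 56.4, 102 and 133 CPM in the knockout (log2 fold change -0.85, 95% interval -1.77 to 0.06). Prdx5, found in several compartments, had 102 to 154 CPM and 94.5 to 123 CPM (-0.19, 95% interval -0.70 to 0.32). Prdx6, which also acts on phospholipid peroxides, had 152 to 210 CPM and 133 to 195 CPM (-0.19, 95% interval -0.69 to 0.32).

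Per transcript length the 6 peroxiredoxins summed to 1122, 618 and 975 TPM in the wild type and 348, 328 and 422 TPM in the knockout. Prdx3 took 38.8%, 23.2% and 39.2% of this sum in the wild type and 5.17%, 6.61% and 9.22% in the knockout, where Prdx5 took 24.7% to 32.5%. The share of Prdx4 was 3.32% to 6.15% and 10.6% to 20.8%. Wild-type library 2 stood apart from its group in the stacked levels, with the lowest Prdx1, Prdx2 and Prdx3.

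**Figure D2:**
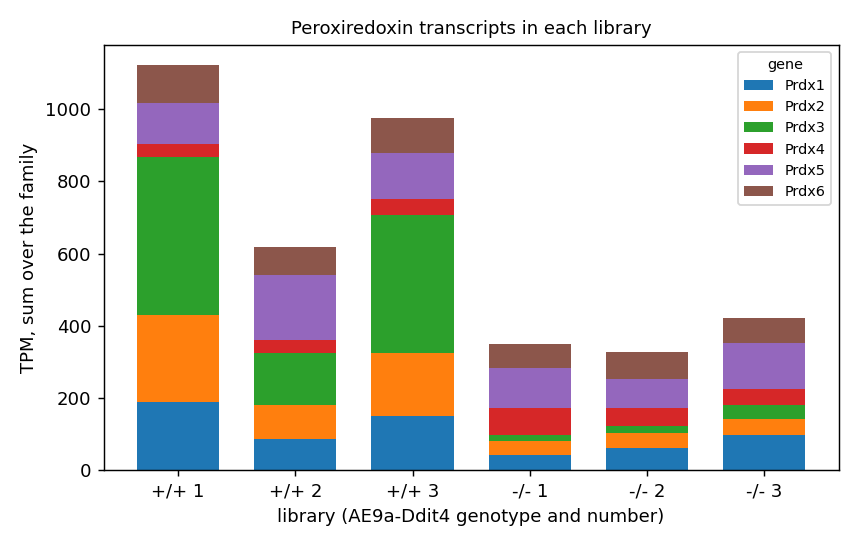
TPM (y axis) of the 6 peroxiredoxin genes stacked for each of the 6 libraries (x axis). The sum is 618 to 1122 TPM in the 3 wild-type libraries and 328 to 422 TPM in the 3 knockout libraries, and the Prdx3 segment shrinks from 144 to 436 TPM to 18.0 to 38.9 TPM.

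Catalase was lower while both dismutases were not past the threshold. Cat (ENSMUSG00000027187, chr2:103453849-103485160, minus strand), the peroxisomal enzyme that splits hydrogen peroxide, went from 182, 139 and 187 CPM to 34.2, 42.4 and 47.4 CPM. The libraries of each group lay close together and the groups far apart (4.09-fold lower, log2 fold change -2.03, SE 0.21, 95% interval -2.53 to -1.53, edgeR adjusted p = 0.000848, the lowest of the 39 genes). Sod1, the cytosolic dismutase, had 302, 299 and 305 CPM in the wild type and 276, 294 and 342 CPM in the knockout (log2 fold change 0.01, 95% interval -0.37 to 0.39, and below 0 under some settings). Sod2, the mitochondrial dismutase, had 59.4 to 76.8 CPM and 47.7 to 62.4 CPM (-0.28, 95% interval -0.74 to 0.19). Sod1 lies on chromosome 16, where the 261 well expressed genes (log2 CPM over 4 on average) had a median of 0.25 on the log2 scale, against -0.17 over the 8218 such genes of all chromosomes; the part of this shift in Sod1 was not tested.

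Of the 6 glutathione transferases, enzymes that join glutathione to reactive compounds, 3 were higher and none was lower. Gstm1 (ENSMUSG00000058135, chr3:108012255-108017973, minus strand), of the mu class, went from 33.3, 40.0 and 12.6 CPM to 112, 129 and 84.8 CPM. All knockout libraries lay above all wild-type libraries (3.79-fold, log2 fold change 1.92, SE 0.42, 95% interval 0.94 to 2.90, edgeR adjusted p = 0.0128). Gsto1 (ENSMUSG00000025068, chr19:47854970-47864790, plus strand), of the omega class, went from 69.8, 87.1 and 54.5 CPM to 175, 216 and 141 CPM, again without overlap (2.52-fold, log2 fold change 1.33, SE 0.25, edgeR adjusted p = 0.00716). Gstp1 (ENSMUSG00000060803, chr19:4035407-4037985, minus strand), of the pi class, went from 44.6, 40.2 and 34.9 CPM to 91.0, 113 and 75.6 CPM (2.34-fold, log2 fold change 1.22, SE 0.22, edgeR adjusted p = 0.00562).

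Near-identical copies stand beside the mu and pi genes, and counting could split reads between them. With Gstm1 to Gstm7 summed into 1 feature the difference was 2.12 on the log2 scale (SE 0.41, edgeR adjusted p = 0.0081), and with Gstp1 to Gstp3 summed it was 1.25 (SE 0.21, edgeR adjusted p = 0.005). Gstm5, a further mu class gene, had 16.6, 1.53 and 3.30 CPM in the wild type and 17.4, 44.7 and 35.2 CPM in the knockout. Wild-type library 1 and knockout library 1 were almost level, and the log2 fold change of 2.18 (95% interval 0.20 to 4.16) was not past the threshold (edgeR adjusted p = 0.0909), while it was without wild-type library 1 (3.75). The membrane-bound Mgst1 (18.5 to 45.8 and 7.38 to 34.7 CPM, log2 fold change -0.49, 95% interval -1.80 to 0.82) and Mgst2 (8.09 to 16.7 and 3.98 to 13.4 CPM, -0.14, 95% interval -1.36 to 1.08) did not pass, and each had its lowest value in knockout library 2. Per length the 6 transferases summed to 277, 308 and 182 TPM in the wild type and 581, 563 and 498 TPM in the knockout.

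**Figure D3:**
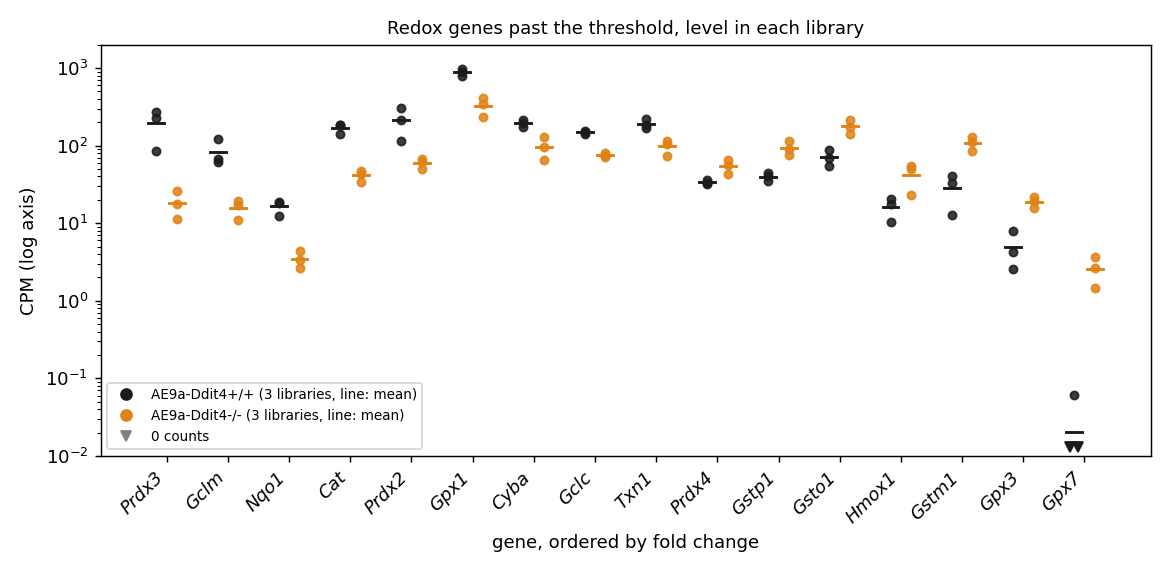
CPM on a log axis (y) in each library for the 16 redox genes past the threshold, ordered by fold change (x), with black points for the 3 wild-type and orange points for the 3 knockout libraries, a line at each group's mean and triangles for 0 counts. The groups are apart in every gene shown, widest among the lower genes for Prdx3 and narrowest for Hmox1, where knockout library 2 is at 22.8 CPM and the highest wild-type library at 20.3 CPM.

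Several of the lower genes are abundant in red cell precursors, and erythroid markers were lower in the knockout as well. Across wild-type libraries 1, 2 and 3 the 17 erythroid markers summed to 17120, 8374 and 14970 CPM, the order in which Prdx2 (305, 116 and 211 CPM), Prdx3 (269, 86.0 and 224 CPM) and Gclm (123, 61.3 and 67.0 CPM) also stood. Cat (182, 139 and 187 CPM) and Gpx1 (892, 788 and 968 CPM) were likewise lowest in library 2 but highest in library 3. Prdx1, Txnrd1, Txnrd2 and Srxn1, which were not past the threshold, also had their lowest wild-type value in library 2. Within the knockout the order was not the same. The highest marker sum was 1213 CPM in library 1, where Prdx2, Prdx3, Cat and Gpx1 were lowest of the knockout libraries, while Gclm was lowest in library 3. No erythroid marker was higher by the test, and no defining one was at 0 in a whole group. The part of erythroid cells in the decrease of Cat, Prdx2, Prdx3, Gpx1 and Gclm was not tested.

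Markers of other cells were higher in the knockout. Megakaryocyte and platelet markers summed to 143 to 227 CPM in the wild type and 2420 to 3348 CPM in the knockout. Of 12 tested 9 were higher (75%, against 19.4% of all genes) and 1 lower. Stromal and endothelial markers summed to 6.76 to 11.95 CPM and 319 to 330 CPM (5 of 8 tested higher, 62.5%, Emcn at 0 in the wild type). Pdgfrb (138 to 162 CPM in the knockout) and Pecam1 (123 to 144 CPM) carried most of the knockout sum. The stromal genes Col1a1, Col1a2 and Lepr were not past the threshold. Lymphoid markers summed to 18.5 to 187 CPM and 480 to 1036 CPM (12 of 14 higher, 85.7%, Klrb1c, Ms4a1 and Trac at 0 in the wild type). Ighm, at 6.76 to 137 CPM and 316 to 890 CPM, carried most of that sum and was not past the threshold. Klrb1c, Ms4a1, Trac, Cd3e and Cd3g, among others, passed the low-count filter only through the knockout libraries. Such genes had to differ once they were tested, so the 85.7% cannot be read as an excess. The part of such cells in the higher levels of Gpx3, Gpx7, Gstm1 and the other genes that rose was not tested.

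Of the NADPH oxidase subunits 1 was lower and 3 were not past the threshold. Cyba (ENSMUSG00000006519, chr8:122424776-122432930, minus strand), which encodes the smaller membrane subunit that stabilizes the catalytic subunit, had 213, 194 and 174 CPM in the wild type and 96.7, 65.1 and 129 CPM in the knockout. The groups did not overlap (log2 fold change -1.001, SE 0.26, 95% interval -1.62 to -0.39, edgeR adjusted p = 0.0262). The threshold was not passed without wild-type library 1 (-0.93), wild-type library 3 (-1.08) or knockout library 1 (-0.99), with adjusted p up to 0.0782 over the alternatives. Cybb (chrX:9435252-9487771, minus strand), which encodes the catalytic subunit, had 169, 284 and 144 CPM in the wild type and 143, 29.6 and 209 CPM in the knockout, where library 2 was far below the others (log2 fold change -0.65, 95% interval -2.10 to 0.81, edgeR adjusted p = 0.472, and -1.27 without knockout library 3).

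Ncf1 and Ncf4, cytosolic subunits that join the membrane part on activation, showed no difference past the threshold. Ncf1, the organizer of the complex, had 81.7, 138 and 105 CPM in the wild type and 126, 70.7 and 157 CPM in the knockout (log2 fold change 0.13, 95% interval -0.64 to 0.89), and its sign turned without wild-type library 1 or knockout library 3. Ncf4 had 40.6, 73 and 42.4 CPM in the wild type and 51.7, 63.9 and 109 CPM in the knockout (log2 fold change 0.53, 95% interval -0.30 to 1.35). Both membrane subunits had fitted values below 0 and Ncf1 and Ncf4 above 0 in the full set of libraries. Ncf4 lies on chromosome 15, where the median over the 344 well expressed genes was 0.39 on the log2 scale. Txn2 on the same chromosome (-0.26) and Txnrd2 on chromosome 16 (-0.53) had values below 0. Other chromosomes were shifted too. The median was 0.23 over 507 such genes of chromosome 1, where Prdx6 lies, and -0.44 over 542 of chromosome 5, where Ncf1 lies. The part of these shifts in any of the genes was not tested.

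Knockout library 2 stood apart in Cyba, Cybb and Ncf1 and in summed myeloid markers, but not in Ncf4, which was at 63.9 CPM there and at 51.7 CPM in knockout library 1. In knockout library 2, which had the lowest Cyba, Cybb and Ncf1, neutrophil markers summed to 2140 CPM and monocyte and macrophage markers to 657 CPM, the lowest sum of all 6 libraries in each case. Neutrophil markers summed to 7801 to 13050 CPM in the wild type and 2140 to 5811 CPM in the knockout, with 6 of 17 lower and 1 higher. Ngp, S100a8 and S100a9 were the most abundant of them in the wild type. Not all went with the sum in knockout library 2. There Ctsg was at 301 CPM, its highest of all 6 libraries, and Mpo (491 CPM), Prtn3 (109 CPM) and Csf3r (154 CPM) were not at their lowest. Of the monocyte and macrophage markers 6 of 19 were higher and none lower. No marker of either list was at 0 in a whole group, and their part in the oxidase values was not tested.

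**Figure D4:**
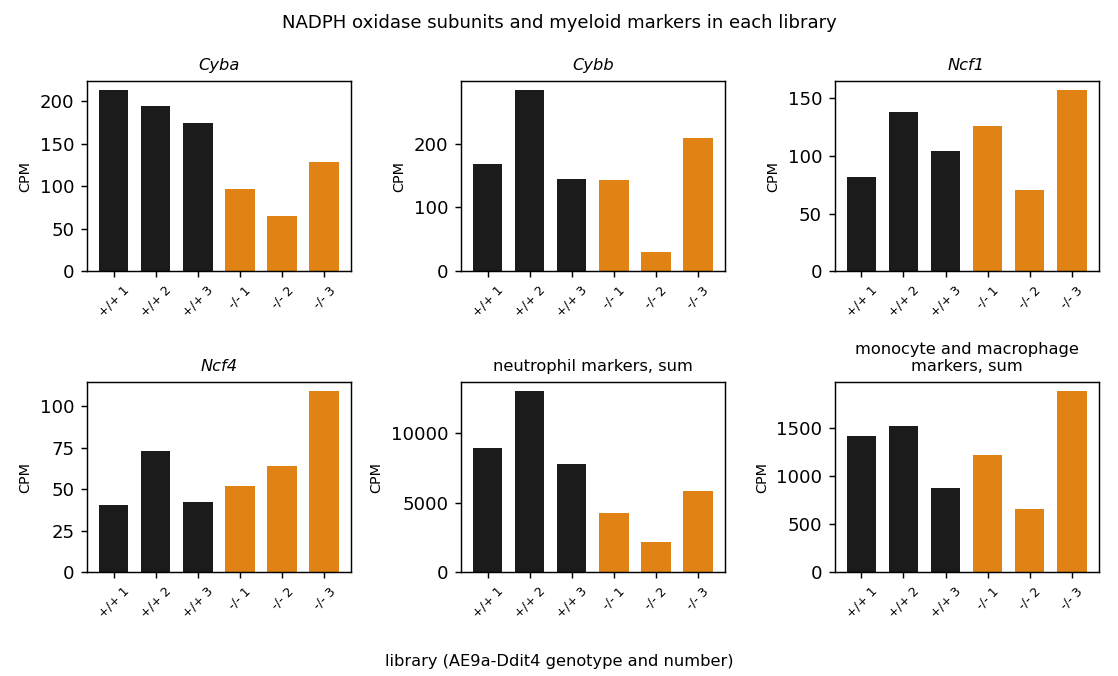
CPM (y axes, each from 0) in each of the 6 libraries (x axes, black for wild type, orange for knockout) of the 4 oxidase subunits, and the summed CPM of the 17 neutrophil and the 19 monocyte and macrophage markers. In knockout library 2 Cybb is at 29.6 CPM and both marker sums are at their lowest, 2140 and 657 CPM.

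Of 16 further genes of the oxidase and related oxidases 7 were tested, and none passed the threshold in edgeR's test. At an unadjusted p below 0.05 there were 2 of the 7, against 7788 of the 18375 genes tested. Duox2, Duoxa2 and Nox3 had 0 counts in all libraries.

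Among 23 further genes of the NRF2 network and of iron and heme handling, 4 were higher (17.4%, against 19.4% of all genes) and 4 lower (17.4%, against 10.7%), with a median log2 fold change of 0.04. Ephx1, which encodes an epoxide hydrolase, was higher at 18.2, 9.43 and 12.6 CPM in the knockout against 0.443, 0.295 and 0.0774 CPM in the wild type, where only 2 libraries exceeded 12 counts. Bach1, a heme-regulated repressor of NRF2 target genes, rose from 107, 74.0 and 80.2 CPM to 247, 259 and 153 CPM (1.34, edgeR adjusted p = 0.00839), and lies on chromosome 16, with its median of 0.25. Maff on chromosome 15 (median 0.39), a small MAF partner protein, rose by 1.69 (edgeR adjusted p = 0.0347), a call that was lost without wild-type library 1 (1.64), knockout library 1 (1.49) or knockout library 2 (1.56). Blvrb, a biliverdin reductase abundant in red cells, went from 111, 49.9 and 68.9 CPM to 21.2, 18.3 and 20.97 CPM (-1.93, edgeR adjusted p = 0.0042). The heme transporter gene Slc48a1 (-0.73, edgeR adjusted p = 0.0185) and the ferritin heavy chain gene Fth1 (-0.57, edgeR adjusted p = 0.0464) were lower, but Slc48a1 lost its call without wild-type library 1 (-0.64), wild-type library 3 (-0.71) or knockout library 3 (-0.75), and Fth1 without any of the 6 libraries (-0.69 to -0.49).

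Of 27 tested among 34 further glutathione genes 7 were higher (25.9%, against 19.4% of all genes) and 4 lower (14.8%, against 10.7%). The higher ones were transferases, but so was 1 of the lower ones, Gstz1 (27.8, 14.4 and 17.4 CPM to 8.24, 10.6 and 10.02 CPM, -1.04, edgeR adjusted p = 0.0441), which is named here after its values were seen. Gstm2 was at least 77.0-fold higher against the limit of detection, with 0.0774 to 0.118 CPM in the wild type and 9.78 to 17.5 CPM in the knockout. Gstp3 had 18, 3 and 3 counts in the wild type and 54, 166 and 187 counts in the knockout, and Gstm7 had 0, 28 and 10 counts and 94, 193 and 316 counts. Gstm2, Gstp3 and Gstm7 passed the low-count filter only through the knockout libraries, and so did Ephx1, so no p is given for them. Gsta4, named here after its values were seen, also passed only through the knockout. It had 0, 9 and 14 counts in the wild type and 103, 130 and 129 counts in the knockout. Gstm2, Gstp3, Gstm7 and Gsta4 thus had to differ once they were tested, so the 25.9% higher cannot be read as an excess. Genes that were lower included Glo1, the glyoxalase that needs glutathione (89.1, 60.8 and 69.6 CPM to 27.4, 25.8 and 18.5 CPM, -1.61, edgeR adjusted p = 0.00322), Chac2, which degrades glutathione (-1.97, edgeR adjusted p = 0.0199), and Glrx5, a mitochondrial glutaredoxin needed for iron-sulfur clusters and heme synthesis (-1.26, edgeR adjusted p = 0.00769). The Chac2 call was lost without wild-type library 3 (-1.65), knockout library 1 (-1.87) or knockout library 2 (-1.86).

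Among 21 further genes of thioredoxins, methionine repair and sestrins, 5 were higher (23.8%, against 19.4% of all genes) and 4 lower (19%, against 10.7%). Sesn3, which encodes a sestrin, rose from 1.52, 1.87 and 0.604 CPM to 62.1, 46.0 and 28.3 CPM (5.09, edgeR adjusted p = 0.000891). Txnrd3, a thioredoxin-glutathione reductase, rose from 0.348, 1.89 and 0.310 CPM to 9.36, 22.6 and 12.6 CPM (4.12, edgeR adjusted p = 0.00925), and the methionine sulfoxide reductase gene Msrb2 rose by 2.99 (edgeR adjusted p = 0.00721). Without wild-type library 2, the highest of its group in both genes, these values were 5.49 and 3.77. Its relative Msrb3 was lower (-2.15, edgeR adjusted p = 0.0195, not past the threshold without wild-type library 1, at -1.76). Selenow (-0.92, edgeR adjusted p = 0.0163) and Tmx1 (-0.70, edgeR adjusted p = 0.0307) were lower as well. Without each of the 6 libraries in turn the value of Tmx1 was -0.81 to -0.56, and only without wild-type library 2 did it pass. Selenow did not pass without wild-type library 1 (-0.87), wild-type library 3 (-0.80), knockout library 1 (-0.84) or knockout library 3 (-0.94).

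Enzymes that supply NADPH, the electron source of both the oxidase and its counterpart defenses, were examined last. The list also holds neighboring enzymes that make no NADPH themselves, among them Taldo1 and the hexokinases, so its counts are not counts of NADPH-making enzymes alone. Of 16 tested among 17, 2 were higher (12.5%, against 19.4% of all genes) and 5 lower (31.2%, against 10.7%), with a median log2 fold change of -0.34. Of the lower ones, G6pdx, the entry enzyme of the pentose phosphate pathway, went from 176, 158 and 150 CPM to 58.5, 53.7 and 95.9 CPM (-1.22, SE 0.26, edgeR adjusted p = 0.0109). Taldo1, the transaldolase of the same pathway, went from 401, 251 and 278 CPM to 75.7, 95.7 and 150.0 CPM (-1.53, SE 0.31, edgeR adjusted p = 0.00944). Neither gene's groups overlapped. Mthfd1, of cytosolic folate metabolism, had a wider spread (241, 53.4 and 113 CPM to 5.43, 24.9 and 30.0 CPM, -2.75, edgeR adjusted p = 0.028) and was not past the threshold without wild-type library 1 (-2.05), wild-type library 3 (-2.87) or any 1 of the 3 knockout libraries (-3.18 to -2.30).

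The higher ones were Aldh1l1, a folate enzyme that also yields NADPH (0.475, 0.236 and 0.00 CPM to 26.5, 27.4 and 21.6 CPM, past the filter only through the knockout, so no p is given), and Hk2, a hexokinase (35.9, 23.1 and 36.4 CPM to 78.4, 88.3 and 61.2 CPM, 1.26, edgeR adjusted p = 0.00943). Hk1, a further hexokinase, was lower (466, 268 and 421 CPM to 170, 245 and 133 CPM, -1.08, edgeR adjusted p = 0.0317), and is named here after its values were seen. Nnt, the mitochondrial transhydrogenase, of which some C57BL/6 substrains carry a defective allele, was split over 2 gene identifiers. Of these, ENSMUSG00000116207 had 741, 0 and 0 counts in the wild type and 0, 934 and 0 counts in the knockout. The cause of this uneven split was not tested. With both summed Nnt had 20.1, 10.4 and 11.4 CPM in the wild type and 19.9, 19.4 and 16.5 CPM in the knockout (0.41, SE 0.32, edgeR adjusted p = 0.361). G6pdx, Cybb and Prdx4 lie on the X chromosome, where the sex of the cells and the genotype cannot be told apart.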

How the data were processed

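RNA-seq libraries of bone marrow leukemia cells (3 AE9a-Ddit4+/+, 3 AE9a-Ddit4-/-, groups and numbers from the sample titles) were compared. The authors deposited 1 table of whole-number estimated counts per gene; aligner, counter and use of strand are not given in the sources used here. The submitters' processing notes name the builds GRCm38 and mm10. The labels name an mRNA kit and the study's methods a directional kit for rRNA-depleted RNA, which was not resolved. Among low values the multiples of 4 were in excess (4, 8 and 12 outnumbered 2, 6 and 10 by 1.4 to 1.62 times), so 12 counts, or 3 fragments at 4 counts each, was taken as the limit of detection, which covers counting error only. Of 55421 identifiers 55240 (99.7%) were found in GENCODE M21 on GRCm38, the source of gene positions and lengths.

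Counts were tested in R 4.3.3 with edgeR 4.0.16 (quasi-likelihood F-test, robust, filterByExpr, TMM factors 0.921 to 1.05, genotype as the only term). Benjamini-Hochberg adjustment ran over the 18375 genes that passed the filter, and an adjusted p below 0.05 is called past the threshold. Fold changes are knockout over wild type, with 95% intervals from the SE. CPM were computed from TMM-scaled totals and TPM from summed exon lengths. Alternatives were library totals, DESeq2 1.42.0 size factors and Wald test, other filters, counts divided by 4, no mitochondrial genes, a replicate block and each library left out. Sums over near-identical copies were added after seeing the data. The test was tried on simulated data.

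The 39 genes, the pathway lists and the marker lists were chosen with earlier results of these data known. All 39 are named. Of each further list up to 3 genes per direction with the greatest change past the threshold are named, and Nnt whatever its values. A gene fixed by name in this rule is not reported here. Promoter windows came from RefSeq (GRCm38.p6).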

Additional observations from a re-analysis of the deposited data

How the results depend on the processing

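Of the 16 redox genes past the threshold 11 stayed past it with the same sign under all alternatives that could be fitted (Gpx7 could not be with at least 10 counts in every library), 5 lost it at least once (Hmox1, Gpx3, Txn1, Prdx4 and Cyba) and 0 changed sign. The 11 include Gpx7, which had to differ once it was tested, so its staying past the threshold says nothing about the processing. Of the other 23, 5 passed at least once (Gpx4, Txnrd1, Txnip, Srxn1 and Gstm5). Over all genes the number higher (3560) was 2341 where every library had to hold at least 10 counts. The number lower (1975) ran from 1089 to 2078 with 1 library left out, and was 1168 without wild-type library 1, 1089 without wild-type library 3 and 1157 without knockout library 1. With 1 library left out the number of oxidase subunits lower was 0 to 1, and the median log2 fold change of the 35 antioxidant genes -0.45 to -0.25.

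The replicate numbers did not pair the libraries, since deviations from the group means correlated at -0.26, -0.30 and -0.03 between same-numbered libraries, and no library correlated best with its own number. With the number as a replicate block 2177 genes were higher and 787 lower, 73.4% of the calls higher against 64.3% without the block, and 4 antioxidant genes were higher and 0 oxidase subunits lower.

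Genes near 0 changed sign. Nfe2l2 (0.00) was 0.0129 with DESeq2 size factors, 0.00863 with DESeq2's Wald test, 0.0619 with at least 10 counts in every library, 0.012 with counts divided by 4, 0.00637 without mitochondrial genes and 0.0235 with the replicate block. Sod1 (0.01) was -0.0535 with library totals alone and -0.0241 with no filter, and Msra (-0.03) was 0.0316 with at least 10 counts in every library. With 1 library left out Nfe2l2 ran from -0.12 to 0.22, Gsr from -0.69 to 0.23, Prdx5 from -0.34 to 0.0182, Sod1 from -0.13 to 0.0792, Msra from -0.24 to 0.10, Mgst2 from -0.45 to 0.27, Me1 from -0.33 to 1.63 and Ncf1 from -0.19 to 0.35. The cause of these changes was not tested. Depth limited Me1, near 12 counts, and the wild-type level of Gpx7.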
